A study of Mus musculus with 9 samples.

Results

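The cell-surface receptors for fatty acids, lipid amides, lactate and ketone bodies were followed across 3 sorted subsets of mouse islet cells. The set was chosen by name and held Ffar1, Ffar2, Ffar3, Ffar4, Gpr119, Hcar1 and Hcar2, which are 7 of the 55536 genes in the deposited tables. Islets came from C57B/L6 mice aged 12 weeks and carried no transgene or treatment that the labels name. They were picked by hand, kept in culture overnight, dispersed and sorted with antibodies to surface markers. The alpha-enriched subset was CD24low CD71-, the beta-enriched subset was CD24low CD71+ and the delta-enriched subset was sorted on high CD24, with 3 RNA-seq libraries in each. The subsets are enriched populations and not pure cells, and the labels do not say whether the 3 libraries of a subset came from separate animals. The p-values therefore measure only the spread between these libraries, which may be technical.

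These receptors all belong to the G protein-coupled family and let a cell read nutrients outside it without taking them up. In the islet they are best known as modulators of hormone secretion. FFAR1 and FFAR4 bind long-chain fatty acids, FFAR2 and FFAR3 bind short-chain fatty acids such as acetate and propionate, and GPR119 binds fatty acid amides and monoacylglycerols. HCAR1 binds lactate, and HCAR2 binds beta-hydroxybutyrate and the drug niacin. FFAR1 signals mainly through Gq and calcium, GPR119 through Gs and cyclic AMP, and FFAR3, HCAR1 and HCAR2 through Gi, which lowers cyclic AMP. FFAR2 couples to both Gi and Gq, and FFAR4 has been described with Gq in many cells and with Gi in delta cells.

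Levels of single genes are given as CPM, counts brought to the same library size, as mean ± SD over 3 libraries. The deposited TPM, which also divides by transcript length, is used wherever 1 gene is set beside another. All 7 receptors passed the filter on low counts and were tested. Each subset had its own leading receptor. Gpr119 led in the alpha-enriched, Ffar1 in the beta-enriched and Ffar4 in the delta-enriched subset on the TPM scale.

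The upstream sequences of these 3 leading genes are printed, and that of Ffar3 because Ffar1 and Ffar3 are close neighbours with different levels. They are the reference sequence of RefSeq on build GRCm38.p6, read 5′ to 3′ on the strand of the gene and ending at the base before the annotated start. Ffar1 is shown from chr7:30861565-30861720 and Ffar3 from chr7:30856179-30856428, both on the minus strand. Ffar4 is shown from chr19:38096829-38097070 on the plus strand and Gpr119 from chrX:48674479-48674728 on the minus strand. Capitals mark the cyclic AMP response element TGACGTCA.
Ffar1: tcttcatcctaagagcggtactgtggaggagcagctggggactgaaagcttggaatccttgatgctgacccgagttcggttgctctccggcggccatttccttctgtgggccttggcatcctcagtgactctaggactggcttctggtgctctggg
Ffar3: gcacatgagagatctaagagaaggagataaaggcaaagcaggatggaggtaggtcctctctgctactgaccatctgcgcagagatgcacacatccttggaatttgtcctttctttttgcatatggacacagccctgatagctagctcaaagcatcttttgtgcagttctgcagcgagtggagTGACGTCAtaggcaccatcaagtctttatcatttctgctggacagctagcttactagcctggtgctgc
Ffar4: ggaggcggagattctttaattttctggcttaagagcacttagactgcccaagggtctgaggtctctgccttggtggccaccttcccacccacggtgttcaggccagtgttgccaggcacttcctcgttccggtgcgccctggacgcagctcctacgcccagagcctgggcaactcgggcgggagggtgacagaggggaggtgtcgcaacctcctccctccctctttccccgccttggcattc
Gpr119: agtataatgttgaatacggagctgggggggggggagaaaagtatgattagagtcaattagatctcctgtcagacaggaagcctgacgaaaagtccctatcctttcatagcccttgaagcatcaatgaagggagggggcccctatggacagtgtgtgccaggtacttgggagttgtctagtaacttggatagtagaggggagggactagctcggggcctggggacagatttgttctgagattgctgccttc
The element TGACGTCA was found only in the Ffar3 window, 68 bases before the annotated start, among 9 promoter windows of 6 receptors in RefSeq. Over all windows of the same length in the table, 588 of 32851 held it, which is 1.79%. The homeobox core TAATTA, the forkhead core TGTTTAC and the TATA box TATAAA, searched on both strands, were in none of the 9 windows and in 5.29%, 3.65% and 13.6% of all windows. These motifs were chosen after the sequences were seen, and a match or its absence describes the letters of the window only. The printed stretch was 57.1% G or C for Ffar1, 48.0% for Ffar3, 62.0% for Ffar4 and 50.4% for Gpr119. Hcar2 is the receptor without a window here.

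The receptors sit at 4 places in the genome. Ffar1 (ENSMUSG00000044453, chr7:30857390-30861564), Ffar3 (ENSMUSG00000019429, chr7:30854330-30856178) and Ffar2 (ENSMUSG00000051314, chr7:30818348-30823775) lie in 1 row on the minus strand of chromosome 7. The annotation leaves 1211 bases between Ffar3 and Ffar1 and 30554 bases between Ffar2 and Ffar3. Hcar1 (ENSMUSG00000049241, chr5:123876736-123880020) and Hcar2 (ENSMUSG00000045502, chr5:123863570-123865499) are 1-exon genes on the minus strand of chromosome 5, 11236 bases apart. Ffar4 (ENSMUSG00000054200, chr19:38097071-38114263) has 3 exons on the plus strand, and Gpr119 (ENSMUSG00000051209, chrX:48667979-48674478) has 2 exons on the minus strand. No annotated gene overlapped a receptor gene.

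The libraries held 5663141 to 9529920 expected counts. Gcg, Ins1, Ins2 and Sst were each highest in the subset labelled for their cell type, but the subsets were not free of each other's hormones. Gcg, which encodes glucagon, stood in the delta-enriched subset at 4.90% of its level in the alpha-enriched subset and in the beta-enriched subset at 0.440%. Ins2, an insulin gene, stood at 8.96% of its beta-enriched level in the alpha-enriched and at 0.737% in delta-enriched libraries, and Sst, which encodes somatostatin, stayed at or below 0.219% of its delta-enriched level elsewhere. No subset was sorted for PP cells, yet the pancreatic polypeptide gene Ppy averaged 2014 CPM in alpha-enriched, 1709 CPM in delta-enriched and 41.5 CPM in beta-enriched libraries. The marker sums that follow were scaled to the total counts of each library, without the TMM factors that enter the CPM of single genes. These sums are therefore not on the same scale as the Ppy levels. The factor was 0.6134 in beta-enriched replicate 2 and 0.9841 to 1.173 elsewhere, so the sums of that replicate read lower than with TMM. Summed over 4 PP markers, the delta-enriched libraries held 5192 to 7745 CPM, the alpha-enriched 3139 to 4114 and the beta-enriched 129 to 240.0. Pyy and Meis2 gave that order, while Sertm1 and mean Ppy were highest in the alpha-enriched subset. Among markers of cells outside the endocrine islet, 6 duct genes summed to 572 to 821 CPM in alpha-enriched, 239 to 360 in beta-enriched and 193 to 362 in delta-enriched libraries. Mesenchymal genes (7) summed to 12.5 to 51.6, 0.944 to 1.51 and 3.76 to 10.4 CPM in the same order, and 12 acinar genes to 53.6 to 314, 16.8 to 33.5 and 215 to 2645 CPM. Spp1 and Krt7 held most of the duct counts in every library. Of these, Spp1 was highest in the alpha-enriched libraries, with 3864, 4699 and 4530 counts against 829, 938 and 380 in the beta-enriched. Krt7 and Sox9 went against the order of that sum. Krt7 had 1179, 933 and 879 counts in the alpha-enriched, 1963, 1312 and 1681 in the beta-enriched and 867, 661 and 1048 in the delta-enriched libraries. Sox9 had 0, 4 and 8 counts in the alpha-enriched, 0 in each beta-enriched and 129, 95 and 195 in the delta-enriched libraries. The summed level of 9 macrophage and other immune genes was 0.601 to 4.06 CPM across all libraries, with Ptprc, Adgre1, Cd52 and Cd3e at 0 counts. That of 5 adipocyte genes was 0 to 0.353 CPM, with Plin1, Lep and Fabp4 at 0 counts. A ribosomal RNA locus took 34.4% of the counts of beta-enriched replicate 2 against 3.15% to 5.37% elsewhere, and the highest acinar sums were those of delta-enriched replicate 3 and alpha-enriched replicate 1. Results were also computed without these 3 libraries. The part of these other cells in the receptor levels was not tested.

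Ffar1 was the most abundant receptor of the beta-enriched subset per length of transcript, and its level differed between all 3 subsets. It stood at 158, 170.0 and 164 CPM in the 3 beta-enriched libraries, at 40.2, 45.0 and 43.9 in the alpha-enriched and at 5.33, 1.21 and 4.75 in the delta-enriched libraries. All 3 groups were apart, with the beta-enriched libraries highest and the delta-enriched lowest. The mean was 164 ± 6.03 CPM in the beta-enriched, 43.0 ± 2.48 in the alpha-enriched and 3.76 ± 2.23 in delta-enriched libraries. In edgeR's quasi-likelihood test with Benjamini-Hochberg adjustment over 15896 genes, the beta-enriched level was 3.81-fold that of the alpha-enriched subset (log2 fold change 1.93, SE 0.21, adjusted p = 1.36e-05). Against the delta-enriched subset the log2 difference was 5.41 (SE 0.27, adjusted p = 5.88e-09). The delta-enriched level also fell below the alpha-enriched one, at a log2 fold change of -3.48 (SE 0.27, adjusted p = 5.95e-07).

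Ffar4, the other long-chain fatty acid receptor, had the opposite order. The delta-enriched libraries were at 29.0, 30.7 and 32.4 CPM, the alpha-enriched at 10.3, 7.93 and 10.9, and the beta-enriched at 0.514, 0.343 and 0.330. The beta-enriched values rest on 4, 2 and 2 counts, so Ffar4 was close to the limit of detection there, and no group overlapped another. The mean was 30.7 ± 1.71 CPM in the delta-enriched, 9.68 ± 1.55 in the alpha-enriched and 0.395 ± 0.103 in the beta-enriched subset. The delta-enriched subset exceeded the alpha-enriched by a log2 fold change of 1.66 (SE 0.21, adjusted p = 1.11e-05). The beta-enriched subset stood below the alpha-enriched at -4.52 (SE 0.34, adjusted p = 1.65e-08) and below the delta-enriched at -6.18 (SE 0.32, adjusted p = 1.31e-10). On the TPM scale Ffar1 was at 20.97 ± 4.42 and Ffar4 at 0.170 ± 0.0458 in the beta-enriched subset, whereas Ffar4 was at 11.7 ± 2.67 and Ffar1 at 0.417 ± 0.239 in the delta-enriched subset. In the alpha-enriched subset both were present at closer levels, 5.79 ± 1.23 TPM for Ffar1 and 4.40 ± 1.42 for Ffar4.

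**Figure D1:**
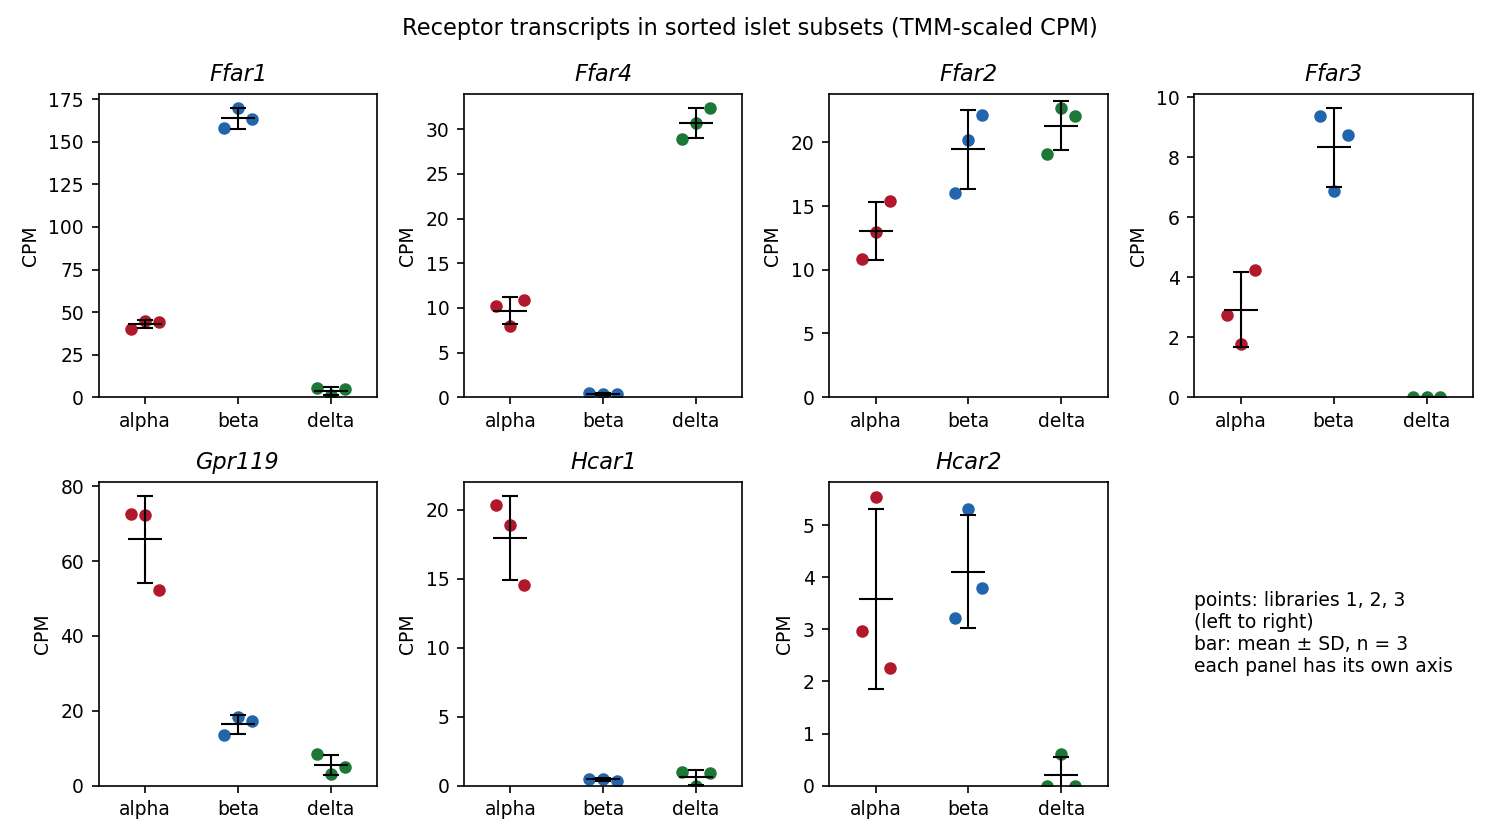
Level of each receptor gene in CPM (vertical axis, from 0, on a scale of its own for each gene) in the alpha-, beta- and delta-enriched subsets (horizontal axis). Points are the 3 libraries of a subset and the bar is their mean with the SD. Ffar1 is highest in the beta-enriched libraries (158 to 170.0 CPM), Ffar4 in the delta-enriched (29.0 to 32.4 CPM), and Gpr119 (52.3 to 72.6 CPM) and Hcar1 (14.5 to 20.4 CPM) in the alpha-enriched.

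Ffar2, a short-chain fatty acid receptor, varied least between subsets. It was at 19.1, 22.7 and 22.1 CPM in the delta-enriched, 16.1, 20.2 and 22.1 in the beta-enriched and 10.8, 13.0 and 15.4 in the alpha-enriched libraries. The alpha-enriched libraries lay below all others, and the beta- and delta-enriched ranges overlapped. The mean was 13.1 ± 2.28 CPM in the alpha-enriched, 19.5 ± 3.10 in the beta-enriched and 21.3 ± 1.91 in delta-enriched libraries. The beta-enriched subset was higher than the alpha-enriched by 0.58 on the log2 scale (SE 0.20, adjusted p = 0.0449), and the delta-enriched by 0.71 (SE 0.20, adjusted p = 0.0155). Beta- and delta-enriched subsets were not told apart (log2 fold change -0.13, SE 0.20, adjusted p = 0.667). The difference between beta- and alpha-enriched subsets lost its call in 12 of 21 alternative analyses, among them those without alpha-enriched replicate 1 (adjusted p = 0.184), alpha-enriched replicate 2 (0.106), beta-enriched replicate 2 (0.138) or beta-enriched replicate 3 (0.186). The difference between delta- and alpha-enriched subsets lost it in 6 of 21, among them those without alpha-enriched replicate 1 (adjusted p = 0.0881) or alpha-enriched replicate 2 (adjusted p = 0.05004), and with log2(TPM + 1) values in limma (adjusted p = 0.141). RSEM spread Ffar2 over 6 annotated transcripts, and its effective length ran from 1159 to 1996 bases between libraries, which enters TPM but not CPM.

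Ffar3, the second receptor for short-chain fatty acids, was found in the beta- and alpha-enriched subsets and not detected in the delta-enriched one. The beta-enriched libraries were at 9.37, 6.85 and 8.75 CPM and the alpha-enriched at 2.73, 1.76 and 4.23. In all 3 delta-enriched libraries the count was 0, which allows up to 0.410, 0.454 and 0.385 CPM when 3 counts are taken as the limit; such limits cover counting error only. The beta-enriched libraries thus lay above all alpha-enriched ones, and the delta-enriched below both. The mean was 8.33 ± 1.31 CPM in the beta-enriched and 2.91 ± 1.24 in the alpha-enriched subset, a log2 difference of 1.52 (SE 0.45, adjusted p = 0.0192). Against 3 counts over the 3 delta-enriched libraries, Ffar3 was at least 60.3-fold higher in the beta-enriched (adjusted p = 1.4e-06) and at least 21.1-fold higher in the alpha-enriched subset (adjusted p = 3.24e-05). The call between beta- and alpha-enriched subsets was lost in 7 of 21 alternatives, including those without alpha-enriched replicate 1 (adjusted p = 0.0668), alpha-enriched replicate 2 (0.0824), beta-enriched replicate 1 (0.103) or beta-enriched replicate 3 (0.0809). Its direction did not change in any of the 21.

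Ffar3 and Ffar1 can be read against each other because they are neighbours on the same strand. The Ffar3 count was 6.80%, 3.92% and 9.65% of the Ffar1 count in the alpha-enriched and 5.93%, 4.03% and 5.34% in the beta-enriched libraries, so the ranges overlapped. Per length, Ffar3 TPM was 21.01%, 10.99% and 31.5% of Ffar1 TPM in the alpha-enriched and 18.6%, 12.5% and 17.2% in the beta-enriched libraries. Over the delta-enriched libraries there were 84 Ffar1 counts and 0 Ffar3 counts, and 3 counts would have been 3.57% of the Ffar1 counts. The summed ratio was 6.66% in the alpha-enriched and 5.16% in the beta-enriched subset, above that pooled limit, which is close to the lowest library ratios of 3.92% and 4.03%. The limits of the single delta-enriched libraries were 7.69%, 37.5% and 8.11%, above both summed ratios, so a lower ratio was not detectable in any delta-enriched library by itself. The counting used a Ffar1 transcript of 4175 bases, while the RefSeq gene spans 903 bases, so reads beyond the RefSeq gene could also be assigned to Ffar1.

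Gpr119, the receptor for oleoylethanolamide-type lipids, was the leading receptor of the alpha-enriched subset. It was at 72.6, 72.4 and 52.3 CPM in alpha-enriched libraries, at 13.6, 18.3 and 17.3 in beta-enriched and at 8.47, 3.18 and 5.01 in delta-enriched libraries. No groups overlapped, and the alpha-enriched libraries were highest throughout. The mean was 65.8 ± 11.6 CPM in the alpha-enriched, 16.4 ± 2.49 in the beta-enriched and 5.55 ± 2.69 in delta-enriched libraries. The beta-enriched subset stood below the alpha-enriched by a log2 fold change of -2.01 (SE 0.24, adjusted p = 9.13e-06) and the delta-enriched at -3.56 (SE 0.27, adjusted p = 5.28e-08). The beta-enriched level exceeded the delta-enriched by 1.55 on the log2 scale (SE 0.27, adjusted p = 0.000353).

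Hcar1, the lactate receptor, was detected well above its floor in the alpha-enriched subset alone. Its alpha-enriched libraries were at 20.4, 18.9 and 14.5 CPM, against 0.514, 0.514 and 0.330 in the beta-enriched and 0.956, 0 and 0.899 in the delta-enriched libraries. The beta-enriched values rest on 4, 3 and 2 counts and the delta-enriched on 7, 0 and 7, where the 0 allows up to 0.454 CPM. The alpha-enriched libraries lay far above the rest, and the beta- and delta-enriched ranges overlapped. From a mean of 17.9 ± 3.04 CPM in the alpha-enriched subset, the level went to 0.453 ± 0.106 in the beta-enriched (log2 fold change -5.25, SE 0.55, adjusted p = 9.9e-07) and to 0.618 ± 0.536 in the delta-enriched subset (-4.78, SE 0.51, adjusted p = 1.71e-06). Between beta- and delta-enriched subsets no difference passed the test (-0.47, SE 0.71, adjusted p = 0.673).

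Hcar2, the receptor for beta-hydroxybutyrate, had another pattern than its neighbour on chromosome 5. It was at 2.96, 5.54 and 2.26 CPM in alpha-enriched libraries and at 3.21, 5.31 and 3.796 in beta-enriched libraries, and these ranges overlapped. In the delta-enriched libraries it had 0, 4 and 0 counts, the 4 counts of replicate 2 being 0.605 CPM and the limits of the other two 0.410 and 0.385 CPM. The mean was 3.59 ± 1.73 CPM in the alpha-enriched, 4.11 ± 1.08 in the beta-enriched and 0.202 ± 0.349 in delta-enriched libraries. No difference between beta- and alpha-enriched subsets passed the test (log2 fold change 0.19, SE 0.62, adjusted p = 0.876), and that estimate became -0.05 without alpha-enriched replicate 3 or without beta-enriched replicate 2. The delta-enriched subset was below the alpha-enriched at -4.14 (SE 0.86, adjusted p = 0.0016) and below the beta-enriched, which exceeded it by 4.32 (SE 0.86, adjusted p = 0.000796). Both sizes rest on the 4 counts of delta-enriched replicate 2: without that library the subset had 0 counts, and the fitted values, which then depend on the prior count, were -7.72 and 7.91. In these bulk libraries, fewer cells that carry a receptor and less receptor RNA per cell cannot be told apart.

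Counted over the set, 6 of 7 receptors passed the test between beta- and alpha-enriched subsets, against 26.6% of all genes tested. Ffar1, Ffar2 and Ffar3 were higher and Ffar4, Gpr119 and Hcar1 lower, where 14.8% of all genes were higher and 11.9% lower. The libraries did not overlap for 6 of 7 receptors, against 45.5% of genes. The median log2 fold change was 0.19 over the receptors and -0.02 over all genes. Between delta- and alpha-enriched subsets all 7 passed, against 24.3% of genes, with Ffar2 and Ffar4 higher (13.3% of genes) and the other 5 lower (11% of genes). None of the 7 overlapped, against 36.1% of genes, and the median log2 fold change was -3.56 against 0.01 over all genes. Between beta- and delta-enriched subsets 5 of 7 passed, against 30.6% of genes. Ffar1, Ffar3, Gpr119 and Hcar2 were higher (15.4% of genes) and Ffar4 lower (15.3% of genes), and libraries of these 5 did not overlap, against 42.6% of genes. The median there was 1.55 against -0.02. The 3 comparisons share their libraries and so are not independent of each other. The receptors were chosen with earlier results of these data known, so these counts describe the set and do not test it.

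**Figure D2:**
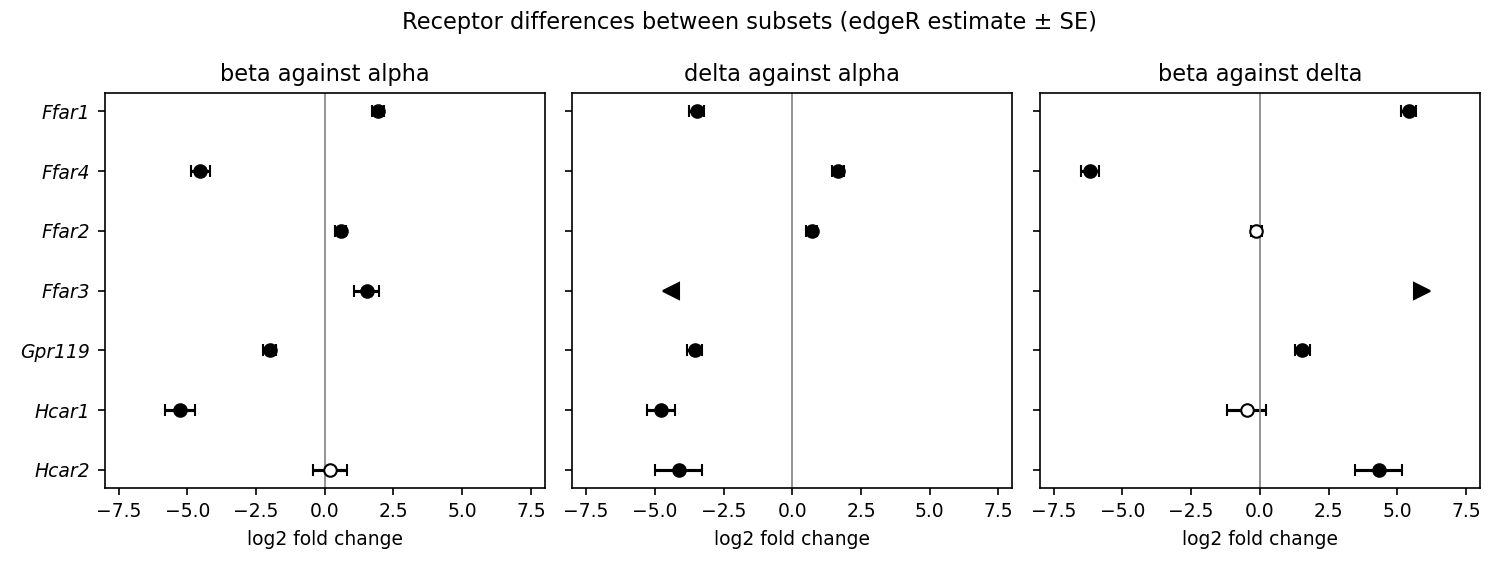
Log2 fold change of each receptor (horizontal axis) in the 3 comparisons between subsets, with the SE derived from edgeR's F statistic as the bar. Filled symbols passed the test, and triangles are lower bounds for Ffar3, which had 0 counts in the delta-enriched subset. Ffar1 and Ffar4 stand on opposite sides of 0 in each comparison, for example 1.93 and -4.52 between beta- and alpha-enriched subsets, and Hcar2 changes little between those subsets (0.19) but is at -4.14 between delta- and alpha-enriched.

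The make-up of the set shows the same receptors per length of transcript. The 7 receptors summed to 36.0 ± 4.24 TPM in the alpha-enriched, 35.4 ± 7.92 in the beta-enriched and 19.8 ± 2.75 in delta-enriched libraries. On log2(TPM + 0.1) the median gene also lay lower in the delta-enriched subset. It was at -0.22 between delta- and alpha-enriched and 0.15 between beta- and delta-enriched subsets, against 0.01 and -0.02 in edgeR. The part of this scale in the lower delta-enriched sum was not tested. Gpr119 made up 46.6% ± 5.38 of the sum in the alpha-enriched subset (40.4% to 50.2%), followed by Ffar1 with 15.96%, Ffar4 with 12.1%, Ffar2 with 10.4% and Hcar1 with 8.52%. Ffar1 made up 59.4% ± 0.733 in the beta-enriched subset, followed by Ffar2 with 15.4%, Gpr119 with 11.5% and Ffar3 with 9.55%. Ffar4 made up 58.5% ± 5.75 in the delta-enriched subset (51.9% to 62.6%), followed by Ffar2 with 32.7% ± 3.83. Receptor RNA was thus spread over 5 genes in the alpha-enriched subset, while the delta-enriched subset held nearly all of it in Ffar4 and Ffar2. Ffar2 stood second in both the beta- and delta-enriched subsets, at 5.46 ± 1.29 and 6.40 ± 0.458 TPM.

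**Figure D3:**
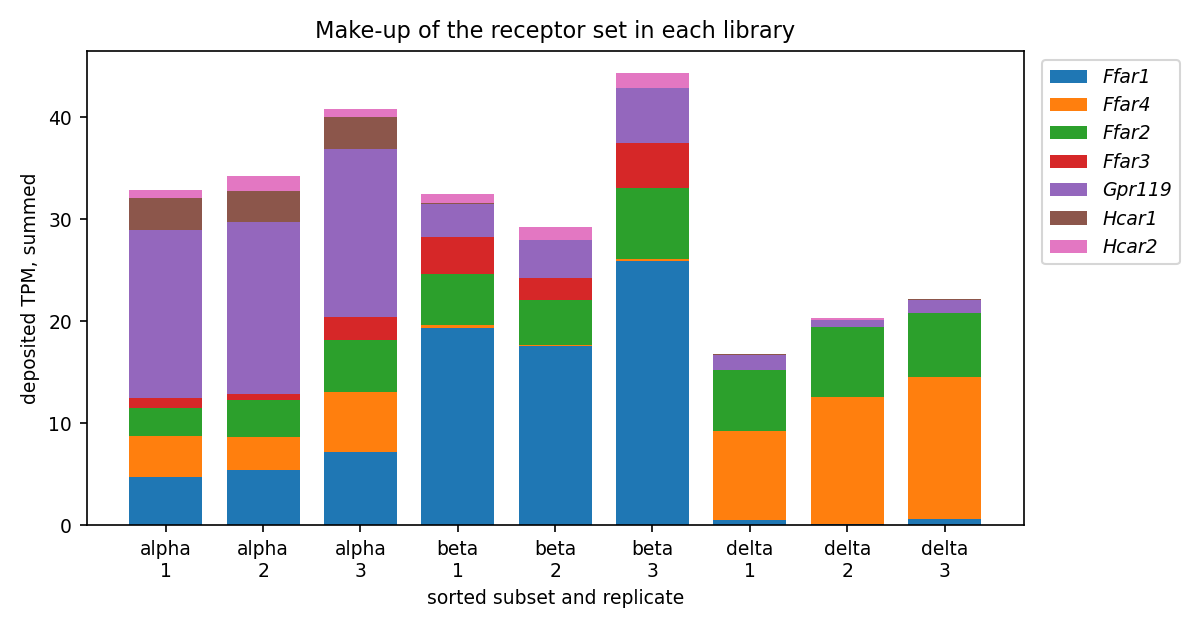
Deposited TPM of the 7 receptors stacked for each of the 9 libraries (vertical axis, summed TPM from 0; horizontal axis, subset and replicate). The largest segment is Gpr119 in the 3 alpha-enriched, Ffar1 in the 3 beta-enriched and Ffar4 in the 3 delta-enriched libraries. On the TPM scale the summed level is lowest in the delta-enriched subset (19.8 TPM on average).

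The lower levels of each receptor can be set beside those of the hormones in the same libraries. Ffar1 in the alpha-enriched subset was at 26.2% of its beta-enriched level and Ffar3 at 34.95%, where Ins1 was at 8.25% and Ins2 at 8.96%. Ffar4 in the alpha-enriched subset was at 31.6% of its delta-enriched level, where Sst was at 0.219%. Ppy was at similar levels in those 2 subsets, with 84.8% of its alpha-enriched level in the delta-enriched and 2.06% in the beta-enriched subset. The PP marker sum had the order of Ffar4, but its members did not all share it. Pyy and Meis2 were higher in the delta- than in the alpha-enriched libraries, while Sertm1 and mean Ppy were lower. Sertm1 had 138, 95 and 102 counts in the alpha-enriched and 2, 4 and 9 in the delta-enriched libraries. The part of PP cells in the Ffar4 levels was not tested. Gpr119 in the beta-enriched subset was at 24.97% of its alpha-enriched level, where Gcg was at 0.440%. These 4 receptor levels were thus larger shares than those of Ins1, Ins2, Sst or Gcg, the hormone genes of the subset in which the receptor was highest. In the delta-enriched subset Gpr119 was at 8.44% and Hcar1 at 3.45% of their alpha-enriched levels, where Gcg was at 4.90%. Replicate 2 had the lowest Gcg among the delta-enriched libraries, at 1930 CPM against 6003 and 5208, and also the lowest Gpr119, Hcar1 and Ffar1. Hcar2 went the other way, with 0.605 CPM in replicate 2 and 0 in the others. Ins1, at 40.3, 58.7 and 197 CPM in replicates 1, 2 and 3, was lowest in replicate 1, where Ffar1 was highest at 5.33 CPM. Ins2 had the same order as Ins1, at 65.3, 118 and 390 CPM. The part of RNA from alpha or beta cells in the low delta-enriched receptor values was not tested.

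**Figure D4:**
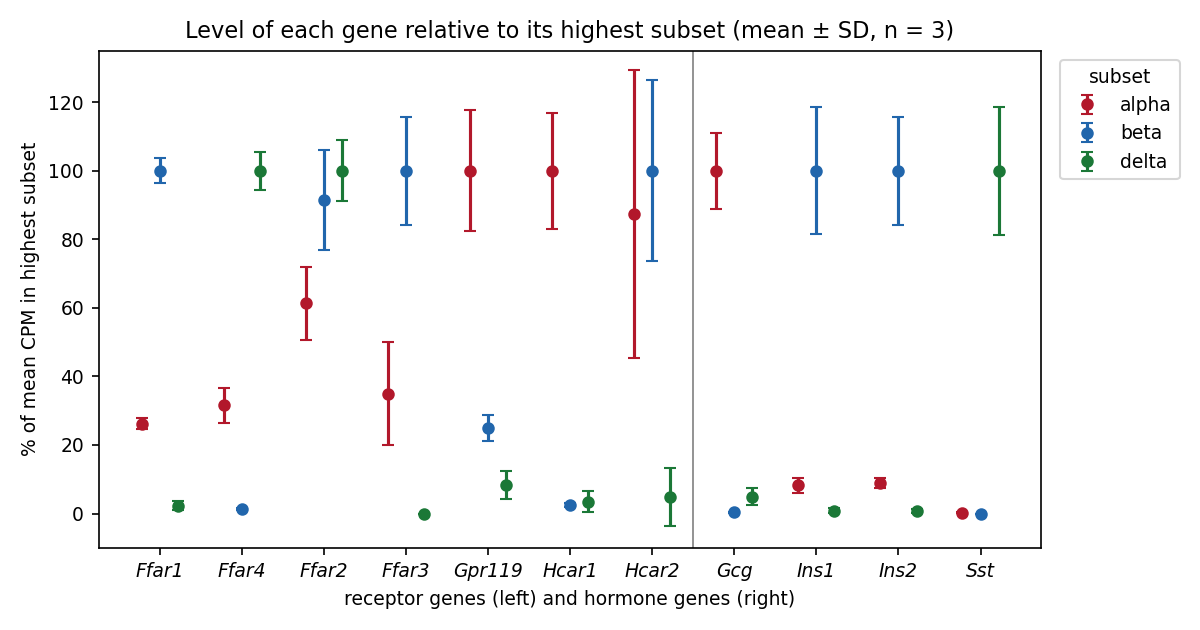
Mean CPM of each gene as a percentage of its mean in the subset where it is highest (vertical axis), for the 7 receptors on the left and hormone genes on the right, with the SD over 3 libraries as a share of the same mean. Ffar1 (26.2%) and Ffar3 (34.95%) in the alpha-enriched subset lie above Ins1 (8.25%) and Ins2 (8.96%) there.

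Neighbouring genes were read next to the receptors. Rbp4, which encodes the retinol carrier and is a marker of delta cells, ends 2365 bases from Ffar4 on the opposite strand. Rbp4 was at 581 ± 76.4 CPM in the delta-enriched, 84.5 ± 13.0 in the alpha-enriched and 1.96 ± 0.637 in the beta-enriched subset, which is the same order as Ffar4. Its log2 fold change was 2.78 (SE 0.14) between delta- and alpha-enriched and -5.38 (SE 0.20) between beta- and alpha-enriched subsets. Cd22, a B cell gene 3837 bases from Ffar1, had 4 counts over the alpha-enriched, 5 over the beta-enriched and 21 over the delta-enriched libraries. Its delta-enriched counts were uneven, from 0 to 2.87 CPM with a mean of 0.956 ± 1.66. On either side of Gpr119, Rbmx2 was at 19.3 ± 3.48 CPM in alpha-enriched, 8.76 ± 2.40 in beta-enriched and 4.70 ± 0.409 in delta-enriched libraries, the order of Gpr119 (beta- against alpha-enriched -1.14, SE 0.25, adjusted p = 0.00259), and Slc25a14 passed no test (adjusted p from 0.158 to 0.591). The Rbmx2 difference between beta- and delta-enriched subsets (0.90, SE 0.27, adjusted p = 0.0191) was lost without beta-enriched replicate 3 (adjusted p = 0.123). Denr, beyond Hcar1, and Kntc1, beyond Hcar2, passed between beta- and delta-enriched subsets only, at 0.43 (SE 0.15, adjusted p = 0.0376) and 2.48 (SE 0.56, adjusted p = 0.0023). The Denr call was lost without beta-enriched replicate 1 (adjusted p = 0.137), beta-enriched replicate 2 (0.151) or delta-enriched replicate 2 (0.104), and Kntc1 was also called between delta- and alpha-enriched subsets without delta-enriched replicate 1 (adjusted p = 0.0428). Cep55, before Ffar4, had 5 to 9 counts in each subset and Krtdap, before Ffar2, had 0, and neither was tested.

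Genes whose levels followed a receptor most closely were looked up among 9393 protein-coding genes at 10 CPM or more in their highest subset, by Pearson's r of log2 CPM over the 9 libraries. Since these libraries form 3 subsets, r follows mostly the subset levels, and it is given as a description. Ffar1 was followed by Ddc (r = 0.995), the decarboxylase that makes dopamine and serotonin, and by Itgav (0.992), mt-Atp6 (0.991), Kcnh1 (0.990) and Amigo3 (0.989). For Ffar4 these were Add2 (0.997), Pcdh9 (0.995), Ptprk (0.995) and its neighbour Rbp4 (0.995). For Gpr119 they were Nap1l5 (0.991), Cct3 (0.984), the arginine transporter gene Slc7a2 (0.983), Ppp4r4 (0.980) and Slc40a1 (0.979), which encodes the iron exporter ferroportin. Near Hcar1 were Hnrnpa1 (0.983), Tmsb4x (0.981), Tmsb15b2 (0.976) and Elavl2 (0.976).

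For the receptors of short-chain acids and ketone bodies, Ffar3 was nearest to the interleukin receptor gene Il1r1 (0.991), Nell1 (0.991), Slc7a15 (0.990), Slc35d3 (0.989) and Snx30 (0.987). Ffar2 was nearest to Hipk2 (0.974), Fndc9 (0.967), Bhlhe40 (0.964), Myo18b (0.960) and Zmynd8 (0.954). Hcar2 was nearest to Usf3 (0.985), the islet transcription factor gene Nkx2-2 (0.984), Mical2 (0.973), Lclat1 (0.973) and Cyc1 (0.967). Within the set, r was 0.961 between Ffar1 and Ffar3, 0.889 between Gpr119 and Hcar1 and -0.881 between Ffar1 and Ffar4.

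The counts of called genes in the lists that follow stand beside 26.6% of all genes called between beta- and alpha-enriched (14.8% higher, 11.9% lower), 24.3% between delta- and alpha-enriched (13.3% and 11%) and 30.6% between beta- and delta-enriched subsets (15.4% and 15.3%). These lists hold 5 to 15 tested genes, and 87 of 504 list counts moved by over 1.5 times under the alternatives. Of 15 tested genes for Gq signalling, which FFAR1 uses, 5 were higher and 3 lower in the beta- than in the alpha-enriched subset (median log2 fold change 0.14), and 6 were higher and 2 lower in the delta- than in the alpha-enriched subset (median -0.00), beside 26.6% and 24.3% of all genes called. Itpr1 and Itpr2, which encode calcium release channels of the endoplasmic reticulum, differed in opposite directions. Itpr1 was at 97.5 ± 12.8 CPM in the beta-enriched, 627 ± 38.7 in the alpha-enriched and 831 ± 24.0 in delta-enriched libraries (log2 fold change of beta- against alpha-enriched -2.68, SE 0.10, adjusted p = 5.09e-12). Itpr2 was at 61.6 ± 4.96, 6.37 ± 1.32 and 5.597 ± 0.955 CPM in the same order (3.27, SE 0.20, adjusted p = 1.22e-09). Prkcb, a protein kinase C gene, was higher in the beta- than in the alpha-enriched subset by 1.42 (SE 0.13). In the delta-enriched subset Plcb4, a phospholipase C gene, was higher than in the alpha-enriched by 1.09 (SE 0.11) and Arrb1, a beta-arrestin gene, by 3.58 (SE 0.42), while Prkd1, which encodes protein kinase D and acts downstream of FFAR1, was at -3.12 (SE 0.26).

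The genes of Gi and Go alpha subunits, used by FFAR2, FFAR3, HCAR1 and HCAR2, all 5 passed the test between beta- and alpha-enriched subsets, 3 higher and 2 lower (median 0.73). Gnai1 was at 163 ± 10.7 CPM in the alpha-enriched, 25.3 ± 4.69 in the beta-enriched and 16.7 ± 6.57 in delta-enriched libraries (beta- against alpha-enriched -2.68, SE 0.24, adjusted p = 2.72e-06). Gnai2 had the reverse order between these first 2 subsets, with 127 ± 3.81 in the alpha-enriched and 277 ± 18.9 in the beta-enriched, and 175 ± 7.41 in delta-enriched libraries (beta- against alpha-enriched 1.13, SE 0.09, adjusted p = 3.51e-08). Of 12 genes for Gs and cyclic AMP, the pathway of GPR119, 3 were higher and 6 lower in the beta- than in the alpha-enriched subset (median -0.60), and 2 were higher and 2 lower in the delta- than in the alpha-enriched subset (median 0.01), a count of 4 of 12 beside 24.3% of all genes. Gnas, which encodes the Gs alpha subunit in a locus with several overlapping transcripts, was at 3002 ± 160.1 CPM in the alpha-enriched, 1568 ± 34.0 in the delta-enriched and 472 ± 24.1 in the beta-enriched subset. The beta-enriched level was -2.67 on the log2 scale against the alpha-enriched (SE 0.09, adjusted p = 6.6e-13). Gnas and Gpr119 were both highest in the alpha-enriched subset but had opposite orders in the other 2. Between beta- and delta-enriched subsets Gnas was at -1.73 (SE 0.08, adjusted p = 5.36e-11) and Gpr119 at 1.55 (SE 0.27, adjusted p = 0.000353).

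Among adenylyl cyclases, Adcy8 was at 39.6 ± 5.01 CPM in the delta-enriched against 0.757 ± 0.689 in the alpha-enriched and 0.613 ± 0.499 in the beta-enriched subset (delta- against alpha-enriched 5.74, SE 0.42, adjusted p = 1.83e-08, and 6.71 without alpha-enriched replicate 3). Adcy1 had 239 counts in the alpha-enriched and 1 in the beta-enriched subset, a ratio of 198 with a 95% counting interval of 35.1 to 7836.9. Rapgef3, which encodes the cyclic AMP sensor EPAC1, had 0 counts in the beta-enriched subset, stood at 2.94 ± 1.36 CPM in alpha-enriched libraries and reached 20.97 ± 5.59 in the delta-enriched subset. It was therefore at least 19.3-fold lower in the beta- than in the alpha-enriched (adjusted p = 2.41e-05) and at least 138-fold lower than in the delta-enriched subset (adjusted p = 5.49e-08). Its delta-enriched level exceeded the alpha-enriched by 2.84 (SE 0.37, adjusted p = 2.87e-05). Between beta- and delta-enriched subsets, 5 genes of the Gq list were higher and 3 lower (median -0.16), 2 of the Gi and Go list higher and 1 lower (0.60) and 3 of the Gs list higher and 7 lower (-1.31).

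**Figure D5:**
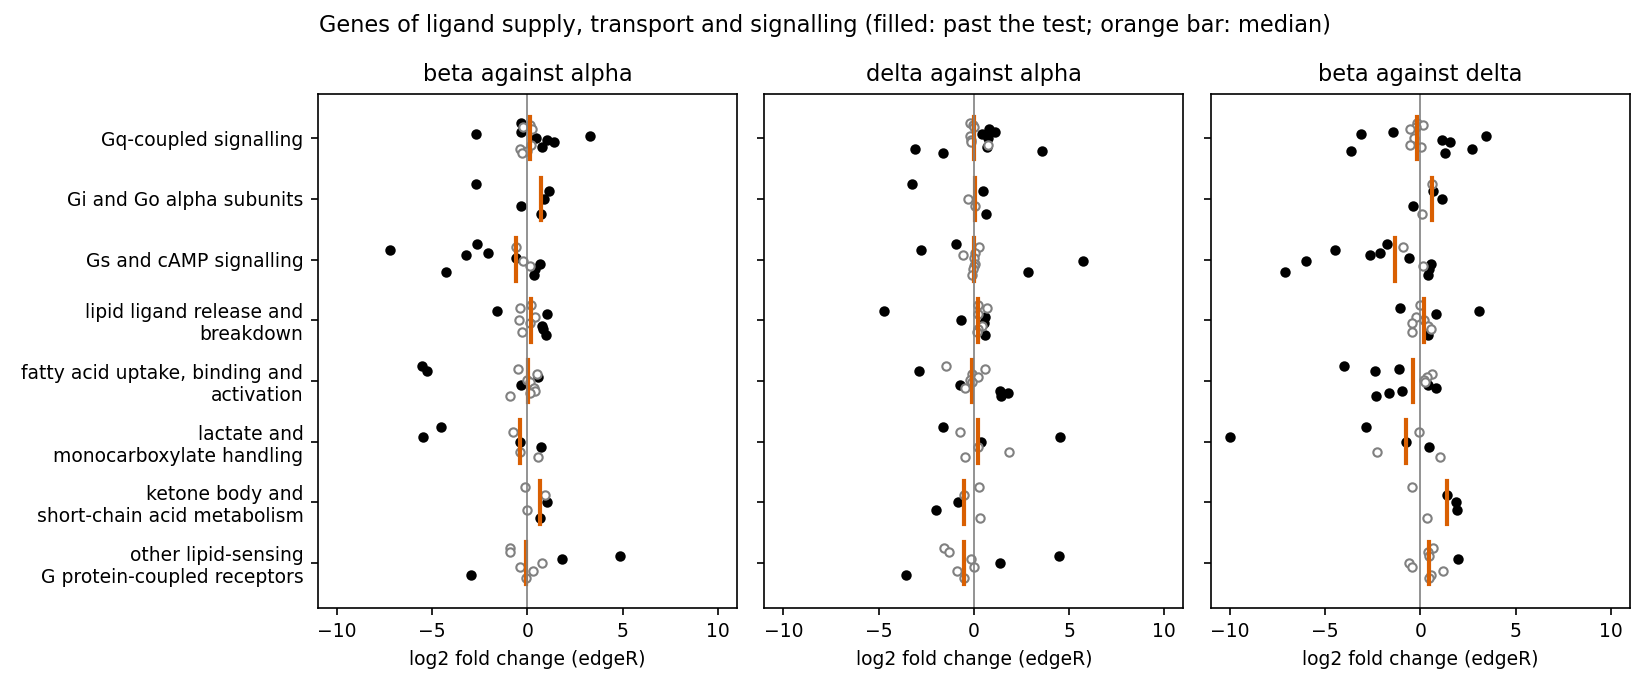
Log2 fold change (horizontal axis) of the genes of 8 lists for signalling, ligand supply, transport and related receptors in each comparison. A point is a gene, filled where it passed the test, the orange bar is the median of the list, and genes with 0 counts in a subset are drawn at their lower bound. The Gs and cyclic AMP list has its median at -0.60 between beta- and alpha-enriched and at -1.31 between beta- and delta-enriched subsets, beside -0.02 over all genes in both.

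The genes that supply or clear the ligands were read in the same way. Of 11 tested genes for release and breakdown of lipid ligands, 4 were higher and 1 lower between beta- and alpha-enriched, 3 higher and 2 lower between delta- and alpha-enriched and 3 higher and 1 lower between beta- and delta-enriched subsets (medians 0.20, 0.22 and 0.21), beside 26.6%, 24.3% and 30.6% of all genes called. Lpl, the lipase that frees fatty acids from lipoproteins, was at 500.1 ± 71.4 CPM in the alpha-enriched, 165 ± 26.1 in the beta-enriched and 19.1 ± 9.64 in delta-enriched libraries (delta- against alpha-enriched -4.70, SE 0.41, adjusted p = 0.000208). Of 12 tested genes for fatty acid uptake, binding and activation, 1 was higher and 3 lower, 3 higher and 2 lower, and 2 higher and 6 lower in the 3 comparisons in that order (medians 0.05, -0.11 and -0.39). Of all genes 26.6%, 24.3% and 30.6% were called. Cd36, the fatty acid translocase, had 185 counts in the alpha-enriched, 58 in the delta-enriched and 3 in the beta-enriched subset, and the ratio of alpha- to beta-enriched was 51.0 (95% counting interval 17.2 to 249). Slc27a2, a fatty acid transport protein gene, had 0 counts in the beta-enriched subset and was at least 38.9-fold higher in the alpha-enriched subset (adjusted p = 1.75e-05).

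Of 7 tested genes for lactate and other monocarboxylates, 1 was higher and 3 lower between beta- and alpha-enriched, 2 higher and 1 lower between delta- and alpha-enriched and 1 higher and 3 lower between beta- and delta-enriched subsets (medians -0.40, 0.22 and -0.76), where 26.6%, 24.3% and 30.6% of all genes were called. Slc16a1, the lactate transporter MCT1, fell from 5.08 ± 1.85 CPM in alpha-enriched to 0.208 ± 0.257 CPM in beta-enriched libraries (-4.52, SE 0.76, adjusted p = 0.00019, and -5.83 without beta-enriched replicate 3). Hcar1 had its highest level in the alpha-enriched subset too. Slc16a7, the transporter MCT2, was instead highest in the delta-enriched subset, at 124 ± 3.496 CPM against 5.40 ± 1.56 in the alpha-enriched (4.52, SE 0.22, adjusted p = 1.06e-10). It had 2 counts in the beta-enriched subset, and the ratio of delta- to beta-enriched was 1216 (95% counting interval 336 to 10044).

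Of 5 tested genes for metabolism of ketone bodies and short-chain acids, 2 were higher and 0 lower between beta- and alpha-enriched, 0 higher and 2 lower between delta- and alpha-enriched and 3 higher and 0 lower between beta- and delta-enriched subsets (medians 0.66, -0.51 and 1.41). These counts rest on few genes, and 26.6%, 24.3% and 30.6% of all genes were called. Oxct1, the enzyme that activates ketone bodies for oxidation, was at 85.7 ± 5.78 CPM in the beta-enriched, 42.4 ± 5.07 in the alpha-enriched and 23.5 ± 3.36 in delta-enriched libraries (beta- against delta-enriched 1.86, SE 0.14, adjusted p = 2.03e-08). Acat1, a mitochondrial thiolase gene, was at 90.9 ± 3.51, 92.4 ± 4.71 and 23.7 ± 1.223 CPM in the same order (beta- against delta-enriched 1.94, SE 0.11, adjusted p = 5.73e-10). Acat1 thus had the order of Hcar2, with similar alpha- and beta-enriched levels and a low delta-enriched level. Of 23 other lipid-sensing receptors only 9 reached the filter on low counts. Of these 2 were higher and 1 lower between beta- and alpha-enriched, 2 higher and 1 lower between delta- and alpha-enriched and 1 higher and 0 lower between beta- and delta-enriched subsets (medians -0.06, -0.54 and 0.48), beside 26.6%, 24.3% and 30.6% of all genes. Cnr1, the cannabinoid receptor gene, was at 31.5 ± 4.72 CPM in the beta-enriched and 23.4 ± 2.54 in delta-enriched libraries against 1.06 ± 0.528 in the alpha-enriched (4.88, SE 0.29, adjusted p = 9.89e-10, and 4.45, SE 0.29, adjusted p = 4.46e-09).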

How the data were processed

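RNA was measured in 9 libraries, 3 from each of 3 sorted islet subsets, and groups follow the labels. The submitters' processing notes name build GRCm38.p6, the aligner STAR (2.5.2b), RSEM, and DESeq2 (1.22.1) under R (3.5.1). RSEM's version and the strand setting are not given in the sources used here; the kit marks strand, per the labels' protocols. The authors deposited, per the file headers, an expected count and a TPM for each gene and library. They also deposited a normalised signal for 17993 genes, which in 8191 of 8202 genes with over 50 counts in each library equalled the count over a size factor and relative effective length (relative tolerance 1e-06). All 55536 gene identifiers matched GENCODE M21, the source of coordinates.

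Expected counts were rounded. edgeR 4.0.16 under R 4.3.3 kept 15896 genes (filterByExpr) and gave TMM factors, CPM and a quasi-likelihood fit (robust, all 9 libraries together), with 2-sided tests, Benjamini-Hochberg adjustment over all genes and a threshold of 0.05. There were 6 residual degrees of freedom and a common biological coefficient of variation of 0.212. The SE is the absolute log2 fold change divided by the square root of the F statistic of that test. On simulated data for beta- against alpha-enriched over 15896 genes, 59 of 100 genes changed 2-fold and 91 of 100 changed 4-fold were recovered, with 7 false calls. The changed genes were drawn from those with higher mean counts, and all other genes were simulated without a difference. The recovery therefore does not cover genes with few counts. A fold against 0 counts is a bound against 3 counts over the subset. Where a subset had 1 to 3 counts, the ratio carries an exact 95% counting interval.

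The receptors and gene lists were chosen with earlier results of these data known. Named genes are all receptors, for each list and comparison the called genes of smallest p (at most 3, of which a part is printed), 5 genes most like each receptor, and adjacent genes. A few of the genes most like a receptor are not reported here. Alternatives used other scaling, filters, DESeq2 1.42.0, limma 3.58.1 on log2 values, a replicate block and fewer libraries.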

Additional observations from a re-analysis of the deposited data

How the results depend on the processing

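Each receptor result was recomputed under 21 alternatives. Of 440 values, 410 kept direction and call, 25 kept direction and lost the call, and 5, none of them called, changed sign. The lost calls were those of Ffar2 against the alpha-enriched subset (12 in the beta-, 6 in the delta-enriched) and of Ffar3 between beta- and alpha-enriched (7). Hcar2 between beta- and alpha-enriched ran from -0.05 to 0.64 when 1 library was left out, and was -0.05 without alpha-enriched replicate 3, without beta-enriched replicate 2, and without beta-enriched replicate 2 and delta-enriched replicate 3, and -0.16 without these 2 libraries and alpha-enriched replicate 1, an alternative chosen after seeing the data. Hcar1 between beta- and delta-enriched was 0.12 with limma on the deposited normalised values, and had no value when only the 2 subsets compared were fitted. The cause was not tested.

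The genes past the test numbered 4231 between beta- and alpha-enriched, 3868 between delta- and alpha-enriched and 4869 between beta- and delta-enriched subsets. With limma on log2(TPM + 1) they were 1765, 1807 and 2446, and on log2(TPM + 0.1) 1819, 1782 and 2480; without the 3 doubted libraries the first 2 were 2540 and 2364, with fewer samples. Leaving out each library gave 3210 to 4997, 3090 to 4334 and 3909 to 5260. Receptors past the test ranged over 4 to 6, 6 to 7 and 5. On log2(TPM + 0.1), 796 genes were higher and 986 lower between delta- and alpha-enriched subsets (median of all genes -0.22), against 2120 and 1748 in edgeR. Of 1743 values of other named genes 1590 kept their call, 151 lost it and 2 gained one, and none changed sign; of 504 counts of called genes in the lists 87 moved by over 1.5 times. Deviations from the subset means were at most weakly correlated between same-numbered libraries (correlations 0 to 0.081). Such deviations over all tested genes also hold counting noise, so they cannot decide whether the numbers pair the libraries. With the replicate block, 4625, 4294 and 5241 genes and 6, 7 and 5 receptors passed.

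Depth limits what can be said of Ffar3, Hcar1, Hcar2 and Ffar4 where they had few counts, since a library with 0 counts still allows up to 0.454 CPM.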
